A study of Mus musculus with 8 samples.

Results

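The FOXO factors and the ubiquitin ligases of muscle atrophy were followed in gastrocnemius muscle as 10 genes, taken by name from the 32390 rows of the deposited count table, each name having 1 row. They comprise 3 transcription factors, *Foxo1*, *Foxo3* and *Foxo4*, and 7 ubiquitin ligases or ligase subunits, *Trim63*, *Fbxo32*, *Fbxo30*, *Fbxo21*, *Fbxo40*, *Traf6* and *Trim32*. All 10 had enough counts to be among the 12725 rows tested. In NOX4-deficient muscle *Trim63* was 4.55-fold and *Fbxo32* 3.08-fold lower. These 2 of the 10 were called lower, against 3.48% of all rows tested, and 0 were called higher, against 2.68%. A call needs an adjusted p under 0.05 in edgeR's quasi-likelihood test and a log2 fold change (KO over control) beyond 0.5 in size.

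FOXO factors are held outside the nucleus when insulin or IGF1 activates AKT, and enter it when that signal falls. In muscle they then switch on genes of protein breakdown, among them *Trim63*, which encodes MuRF1, and *Fbxo32*, which encodes atrogin-1. Both ligases attach ubiquitin to muscle proteins so that the proteasome degrades them, and their mRNAs are the usual markers of an atrophy program in fasting, denervation and glucocorticoid treatment.

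The KO (NOX4-deficient) group held 4 *Mck*-Cre;*Nox4* fl/fl mice, and 4 *Nox4* fl/fl mice without Cre served as control. All were C57BL/6 males of 21 months on standard chow, and both groups carried the floxed allele. Cre under the *Mck* promoter is active in striated muscle, the heart included, and the other cells of the tissue keep *Nox4*. Whole muscle was sequenced, and a fall in the number of cells of a type cannot be told apart from less RNA per cell. The mice were housed with free access to food, and no source used here gives the hour of tissue collection or a fast before it.

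The 8 libraries, all of 1 batch, held between 16350548 and 19804661 counts. *Nox4* itself had 85, 48, 35 and 70 counts in control and 29, 43, 42 and 37 counts in KO mice, and was not called (log2 fold change -0.65, SE of the fit 0.29, edgeR adjusted p = 0.207). Over all rows tested, 443 were called lower and 341 higher. Control replicate 4 stood apart in several of the genes below, and values without it are given where they matter. The skeletal muscle fiber markers, *Ckm* and *Acta1* among them, summed to between 130453 and 166657 CPM in control and between 140088 and 172716 CPM in KO mice, and 0 of the 8 were called.

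*Trim63*, the RING-type ligase of thick-filament proteins, differed most among the 10. It stood at 837, 563, 962 and 1658 CPM, the count scaled to the size of the library by edgeR's TMM method, in control replicates 1 to 4. In KO replicates 1 to 4 it stood at 227, 247, 219 and 192 CPM. The groups did not overlap, and each KO mouse held between 19.1% and 24.6% of the control mean. The mean was 1005 ± 466 CPM in control and 221 ± 22.7 CPM in KO muscle (SD, n = 4 each), a log2 fold change of -2.18 (SE 0.28, edgeR adjusted p = 0.00202). The spread was also unlike, with a highest over lowest value of 2.95 among control mice and 1.29 among KO mice. The 2.95 rests on control replicate 4, the other controls lying between 563 and 962 CPM.

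The bases just before the start of *Trim63* are shown because this gene carries the largest difference, beside those of *Fbxo40*, another abundant ligase gene of muscle, with a smaller difference. Both are 250 bases from RefSeq on build GRCm38.p6, written 5′ to 3′ on the gene's own strand and ending at the base before the annotated start, at chr4:134314870-134315119 on the plus strand for *Trim63* and chr16:36990468-36990717 on the minus strand for *Fbxo40*. Capitals mark matches to the FOXO core GTAAACA, the glucocorticoid receptor palindrome GAACANNNTGTTC and the E-box CAGCTG, to which myogenic factors bind, each searched on both strands.
Trim63: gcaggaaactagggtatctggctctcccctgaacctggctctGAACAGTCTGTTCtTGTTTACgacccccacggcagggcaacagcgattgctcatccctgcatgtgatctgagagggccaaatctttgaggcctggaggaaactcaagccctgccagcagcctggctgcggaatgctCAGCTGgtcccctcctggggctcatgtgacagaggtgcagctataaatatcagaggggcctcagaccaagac
Fbxo40: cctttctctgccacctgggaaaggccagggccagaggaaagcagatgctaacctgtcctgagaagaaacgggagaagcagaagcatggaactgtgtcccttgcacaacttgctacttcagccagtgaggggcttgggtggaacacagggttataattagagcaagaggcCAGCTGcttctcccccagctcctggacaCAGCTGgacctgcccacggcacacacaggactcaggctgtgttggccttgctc
In the *Trim63* sequence the palindrome spans 208 to 196 bases before the start, and the FOXO core, on the other strand, 194 to 188 bases before it, so that 1 base parts them. An E-box lies 72 to 67 bases before the start. *Fbxo40* has E-boxes 81 to 76 and 53 to 48 bases before the start shown and neither of the other motifs. A second annotated start of *Fbxo40*, not shown, has an E-box 89 to 84 bases before it and neither of the other motifs. The glucocorticoid receptor and FOXO1 are known to act together on the *Trim63* promoter.

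Of the 10 genes, 8 had at least 1 window in the promoter table, which runs from 250 bases before to 50 after a start, and *Fbxo32* and *Foxo4* had none. Among these, only *Trim63* held the FOXO core or the palindrome. The core occurred in 3.65% of all 32851 windows, the palindrome in 0.0578% (19 windows), and both in 2 windows. The clock E-box CACGTG, in 7.15% of windows, was found in none of the 8 genes, and CAGCTG, in 16.3% of windows, in *Trim63*, *Fbxo40* and *Trim32*. A match to these letters is a description of the sequence, and binding was not measured.

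*Fbxo32*, the substrate-binding subunit of a Cullin-RING ligase that acts on MyoD and the translation factor eIF3f, came next. It stood at 778, 737, 860 and 1694 CPM in control and at 317, 403, 232 and 368 CPM in KO mice. The groups did not overlap, and control replicate 4 was again the highest. The mean was 1017 ± 454 CPM in control and 330 ± 74.2 CPM in KO muscle (SD, n = 4 each), a log2 fold change of -1.62 (SE 0.28, edgeR adjusted p = 0.00887). Without control replicate 4 the log2 fold changes of *Trim63* and *Fbxo32* became -1.83 and -1.26 (edgeR adjusted p = 1.77e-04 and 0.00201). Both genes were called in all 17 alternative fits.

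**Figure D1:**
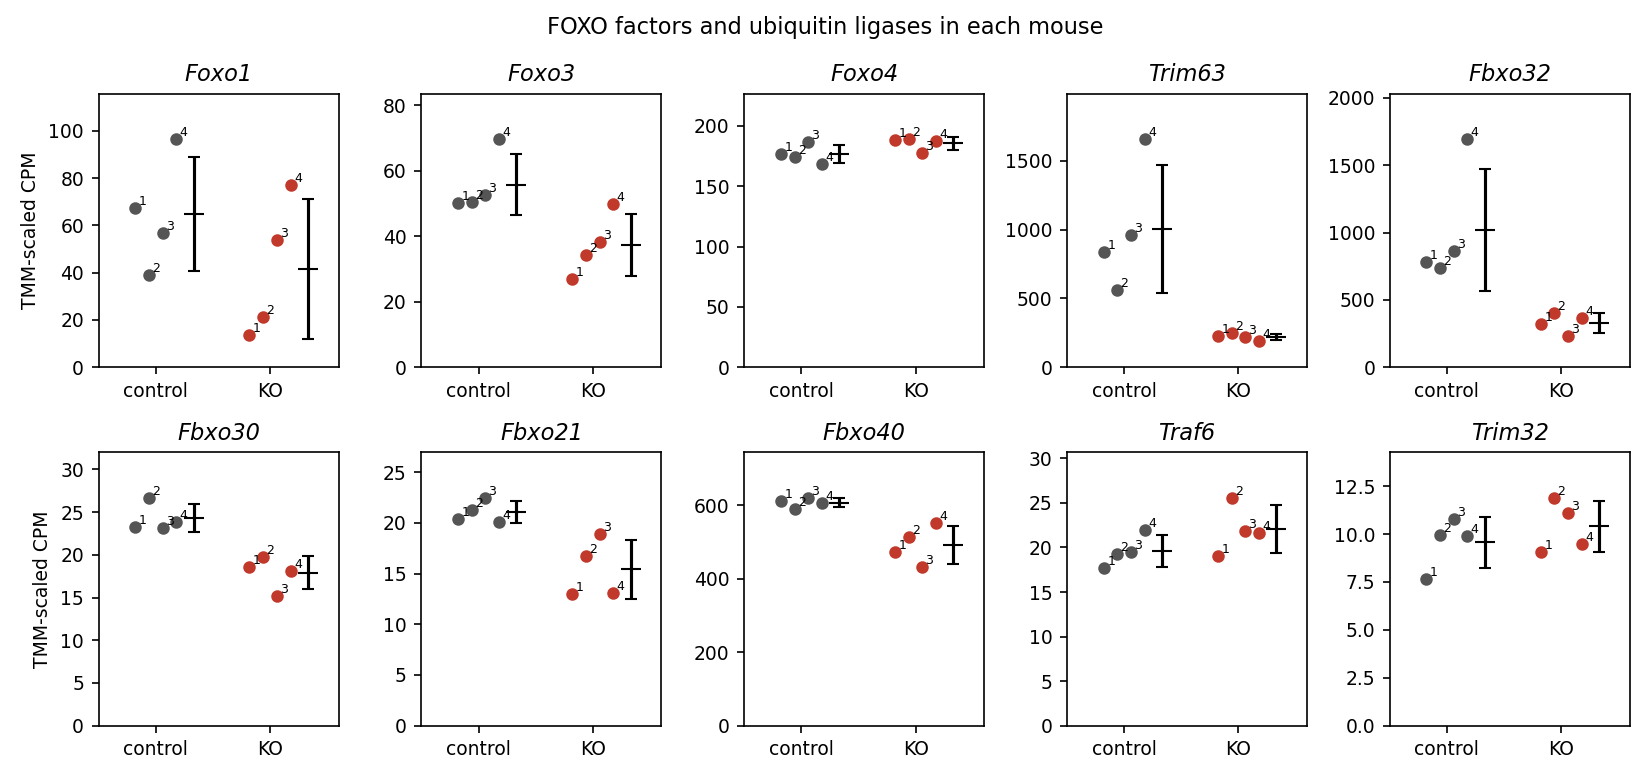
TMM-scaled CPM of the 10 genes in each mouse, 1 panel per gene with a y axis from 0. Grey points are the 4 control mice and red points the 4 KO mice, numbered by replicate, with the mean and SD beside them. *Trim63* and *Fbxo32* lie far below control in all 4 KO mice, while *Foxo4*, *Traf6* and *Trim32* overlap between genotypes.

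A further 3 F-box genes lay lower in every KO mouse than in any control mouse, by smaller steps. Of all rows tested, 8.97% did so. *Fbxo30*, which encodes the ligase subunit MUSA1, had 23.3, 26.7, 23.2 and 23.9 CPM in control and 18.6, 19.7, 15.2 and 18.1 CPM in KO mice. Its log2 fold change was -0.44 (SE 0.11), with an edgeR adjusted p of 0.0354, so that it passed the p-value threshold and not the fold threshold. It was the only one of the 10 to do so, and 4.62% of all rows were lower by the adjusted p alone, those called lower included. With control replicate 4 left out its adjusted p was 0.073.

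*Fbxo21*, the F-box protein also named SMART, had 20.4, 21.3, 22.5 and 20.1 CPM in control and 13.0, 16.7, 18.9 and 13.1 CPM in KO mice. Its log2 fold change was -0.45 (SE 0.14, edgeR adjusted p = 0.0651). Without KO replicate 3, the KO mouse nearest to control, it was -0.55 with an adjusted p of 0.0413 and would be called.

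*Fbxo40*, a muscle-specific F-box protein that targets the insulin receptor substrate IRS1, was abundant and even among control mice, at 611, 591, 621 and 607 CPM. The KO mice had 472, 515, 431 and 552 CPM, and the 2 groups did not overlap. The log2 fold change was -0.30 (SE 0.10, edgeR adjusted p = 0.0937), a 1.23-fold difference that was not called by any of the fits.

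The remaining ligases overlapped between genotypes. *Traf6*, which passes signals from cytokine receptors to NF-kB, had between 17.7 and 22.0 CPM in control and between 19.1 and 25.6 CPM in KO mice (log2 fold change 0.17, SE 0.12, edgeR adjusted p = 0.452). *Trim32*, which acts on desmin and thin-filament proteins, had between 7.67 and 10.8 CPM in control and between 9.08 and 11.9 CPM in KO mice (0.12, SE 0.15, edgeR adjusted p = 0.667). Both differences were within the spread between mice, and their sign was positive in all 17 alternative fits.

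Among the FOXO factors, *Foxo3* was the one whose groups did not overlap. It had 50.3, 50.6, 52.7 and 69.7 CPM in control and 27.0, 34.3, 38.4 and 49.8 CPM in KO mice, so that the highest KO mouse lay just under the lowest control mouse. The log2 fold change was -0.58 (SE 0.17, edgeR adjusted p = 0.0624), beyond the fold threshold and short of the p-value threshold. DESeq2 and pydeseq2 called it, with adjusted p-values of 0.0234 and 0.026, as did 3 other alternative fits, whereas without control replicate 4 it had a log2 fold change of -0.45 and an adjusted p of 0.171.

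*Foxo1* varied most of the 10 among KO mice. Control mice had 67.3, 39.0, 56.8 and 96.5 CPM, and KO mice 13.8, 21.2, 53.9 and 77.2 CPM. The lowest 2 KO mice lay under all controls, and the highest 2 lay within their range. The coefficient of variation was 37.1% in control and 70.9% in KO mice, and the log2 fold change of -0.64 (SE 0.55, edgeR adjusted p = 0.539) was within this spread. Leaving out 1 library at a time moved it between -1.11 and -0.34 without a call.

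*Foxo4* was nearly constant, at 177, 174, 187 and 168 CPM in control and 188, 189, 178 and 187 CPM in KO mice. Its log2 fold change was 0.07 (SE 0.09, edgeR adjusted p = 0.667). *Foxo6*, the remaining FOXO gene, is not one of the 10 and was looked up after its values were seen. It had 18, 21, 28 and 14 counts in control and 92, 84, 85 and 61 counts in KO mice, a log2 fold change of 2.02 (SE 0.25, edgeR adjusted p = 9.61e-04). It was thus the one FOXO gene called, in the direction opposite to the 2 ligases, from 1.10 ± 0.315 CPM to 4.46 ± 0.812 CPM (SD, n = 4 each).

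The levels of *Foxo1* were set beside those of its known target ligases, mouse by mouse. KO replicate 4 had the most *Foxo1* of its group, 119% of the control mean, and 19.1% of that of *Trim63*. *Trim63* spanned only 19.1% to 24.6% among KO mice. KO replicate 1 had 21.3% of the control mean of *Foxo1* and 22.5% of that of *Trim63*. *Fbxo32* was lowest in KO replicate 3, at 22.8%, where *Foxo1* stood at 83.0%. In control replicate 4 all 4 genes were highest of their group, at 149% for *Foxo1*, 125% for *Foxo3*, 165% for *Trim63* and 167% for *Fbxo32*. Control replicate 2 was the lowest control for *Foxo1*, *Trim63* and *Fbxo32*, at 60.1%, 56.0% and 72.5%. *Foxo3* was lowest in control replicate 1, at 90.2%. With 4 mice in each group these relations were not tested.

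**Figure D2:**
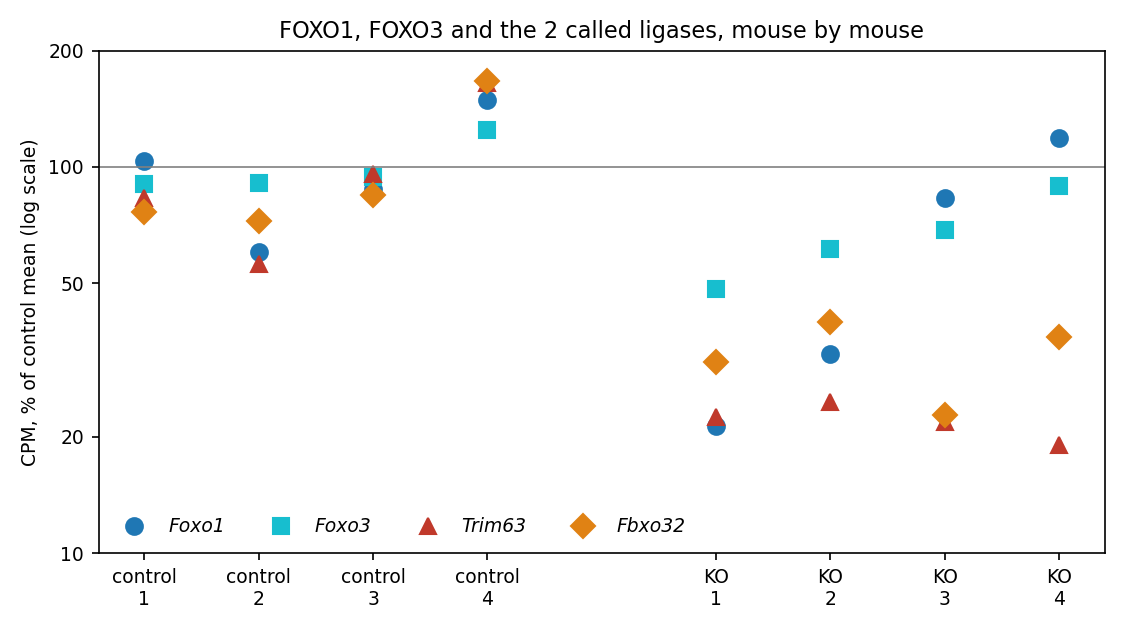
CPM of *Foxo1*, *Foxo3*, *Trim63* and *Fbxo32* in each mouse as a percentage of the control mean, on a log axis, with control replicates on the left and KO replicates on the right. In KO replicate 4 *Foxo1* is at 119% and *Trim63* at 19.1%, and in control replicate 4 all 4 symbols lie above 100%.

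The KO libraries lay wholly under the control libraries in 6 of the 10, against 8.97% of all rows, and wholly above them in 0, against 7.2%. The median log2 fold change was -0.44 over the 10 genes and 0.01 over all rows.

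**Figure D3:**
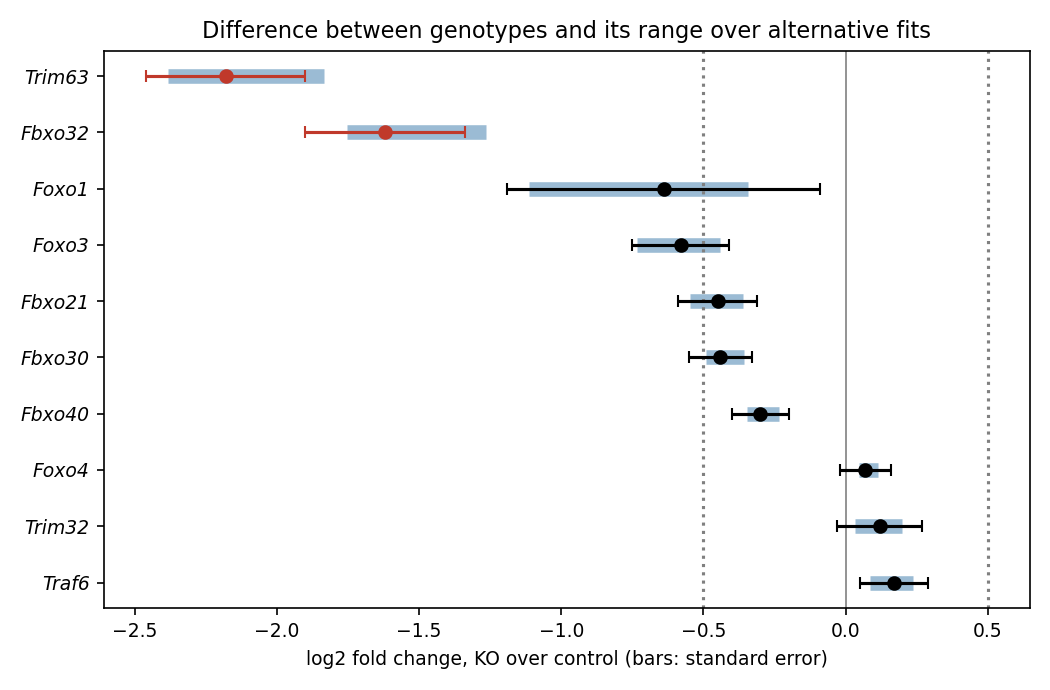
Log2 fold change (KO over control) of the 10 genes with its SE, red where called, over pale bars that span the 17 alternative fits. Dotted lines mark the fold threshold of 0.5. *Trim63* and *Fbxo32* stay beyond it in every fit, and no bar crosses 0.

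Levels of different genes were compared as CPM per kilobase of the longest GENCODE M21 transcript. In control muscle *Trim63* had 533 ± 247 CPM per kb (SD, n = 4) and ranked 49th among 12182 genes with a length. *Fbxo32* followed with 146 ± 65.1 and *Fbxo40* with 118 ± 2.47 CPM per kb, which did not differ beyond the spread between mice. *Fbxo21*, *Fbxo30*, *Traf6* and *Trim32* lay between 2.99 and 5.32 CPM per kb. In KO muscle *Trim63* ranked 317th with 117 ± 12.0 CPM per kb, *Fbxo40* stood at 95.9 ± 10.1 and *Fbxo32* at 47.3 ± 10.6 CPM per kb. The order of *Trim63* and *Fbxo40* in KO muscle turns when the bases of all exons are used as length, at 77.8 against 89.3 CPM per kb.

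*Foxo4* was the most abundant FOXO mRNA per length, at 55.8 ± 2.42 CPM per kb in control and 58.7 ± 1.67 CPM per kb in KO muscle (SD, n = 4 each). *Foxo3* (8.15 ± 1.36 CPM per kb) and *Foxo1* (7.49 ± 2.78 CPM per kb) did not differ beyond their spread in control muscle. *Foxo6* was far lower in level, at 0.419 ± 0.12 CPM per kb in control and 1.70 ± 0.311 CPM per kb in KO muscle. The libraries are unstranded, and *Fbxo32* shares 186 exon bases with *Gm15943* on the opposite strand, a gene with 642 counts over the 8 libraries against 99875 for *Fbxo32*.

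Upstream of the FOXO factors, 44 genes were tested, among them kinases, phosphatases, deacetylases and binding partners of FOXO. Of these, 4 were called lower and 0 higher, against 3.48% and 2.68% of all rows, and the median log2 fold change was -0.13. This list and those below were chosen with earlier results of these data known. *Igf1r*, the IGF1 receptor, fell from 28.3 ± 4.56 to 16.3 ± 3.20 CPM, *Pdpk1*, the kinase that activates AKT, from 62.1 ± 6.85 to 42.1 ± 5.93 CPM, and *Sgk3*, a kinase related to AKT, from 13.6 ± 1.64 to 8.90 ± 1.09 CPM (SD, n = 4 each). Their edgeR adjusted p-values were 0.0137, 0.0184 and 0.0204. The other called gene, *Irs1*, is taken up below. The count fell to 2 without control replicate 2, control replicate 4 or KO replicate 3 and to 1 without KO replicate 1, and it rose to 7 with DESeq2. *Akt1* and *Akt2*, looked up after their values were seen, had log2 fold changes of -0.13 and -0.20 (edgeR adjusted p = 0.565 and 0.208).

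Of 43 other genes known as FOXO targets, 14 were called lower and 1 higher, against 3.48% and 2.68% of all rows. The median log2 fold change was -0.36. The KO libraries lay wholly under control in 18 of the 43, against 8.97% of all rows. *Gabarapl1*, an autophagosome protein of the ATG8 family, had a log2 fold change of -1.58, *Cat*, which encodes catalase, of -1.31, and *Pnpla2*, the lipase ATGL, of -1.19, with edgeR adjusted p-values of 4.41e-05, 5.54e-05 and 9.94e-04. *Bnip3*, a mitophagy receptor, and *Ulk1*, a kinase that starts autophagy, were also called lower, at -0.87 and -0.86. The gene called higher was *Txnip* (0.90, edgeR adjusted p = 0.00114), and these last 3 were named after their values were seen. Without control replicate 4, 10 were called lower and 1 higher, and without KO replicate 3 the number called higher was 2.

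Other known targets did not pass the test. *Ctsl*, the lysosomal protease cathepsin L, had a log2 fold change of -0.32 (edgeR adjusted p = 0.109), and *Map1lc3b*, an autophagosome protein, of -0.36 (edgeR adjusted p = 0.0825). Both are often counted with *Trim63* and *Fbxo32* among atrophy genes, and both were picked after their values were seen. *Mstn*, the muscle growth inhibitor myostatin, stood at 93.7 ± 12.1 CPM in control and 90.9 ± 27.5 CPM in KO muscle (SD, n = 4 each, log2 fold change -0.04), and was likewise picked after its values were seen.

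Among 59 other ubiquitin ligases and ubiquitin genes of muscle, 5 were called lower and 1 higher, against 3.48% and 2.68% of all rows. The median log2 fold change was -0.11. *Zfand5*, a zinc-finger protein that stimulates the proteasome and is itself an atrophy gene, fell from 804 ± 102 to 470 ± 16.4 CPM (SD, n = 4 each, log2 fold change -0.78, edgeR adjusted p = 0.00168). *Asb2*, a ligase subunit of muscle, had a log2 fold change of -0.59, and *Cblb*, a ligase that acts on IRS1 in unloaded muscle, of -0.94 (edgeR adjusted p = 0.0084 and 0.00978). *Ube4a*, a ubiquitin ligase, had 113 ± 36.9 CPM in control and 56.3 ± 9.21 CPM in KO muscle (SD, n = 4 each, edgeR adjusted p = 0.0138). *Fbxl22*, an F-box gene of muscle, was called higher (1.18, edgeR adjusted p = 0.0135). Both were named after their values were seen.

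The closest relatives of *Trim63* were not called. *Trim54*, which encodes MuRF3, had 328 ± 19.7 CPM in control and 273 ± 13.6 CPM in KO muscle (SD, n = 4 each, log2 fold change -0.27, edgeR adjusted p = 0.104). *Trim55*, which encodes MuRF2, had 66.5 ± 5.92 and 86.3 ± 4.49 CPM (0.38, edgeR adjusted p = 0.034), with all KO mice above all controls and a difference under the fold threshold. Both were looked up after their values were seen.

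The median log2 fold change of 32 known substrates and partners of the ligases was 0.06. Of these, 3 were called lower and 0 higher, against 3.48% and 2.68% of all rows. These were *Sqstm1*, the ubiquitin-binding autophagy receptor that partners TRAF6 (-0.69, edgeR adjusted p = 0.00456), *Mybpc1*, a thick-filament protein (-0.91, edgeR adjusted p = 0.00611), and *Irs1*, the substrate of FBXO40. *Irs1* stood at 44.2 ± 14.2 CPM in control and 16.8 ± 7.19 CPM in KO muscle (SD, n = 4 each, -1.39, edgeR adjusted p = 0.0266), its groups overlapped, and 10 of the 17 alternative fits called it. The mRNAs of the FBXO32 substrates *Eif3f* (0.05) and *Myod1* (-0.56) had edgeR adjusted p-values of 0.824 and 0.244, and were looked up after their values were seen. Protein levels and ubiquitylation were not measured in these libraries.

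Glucocorticoids raise *Trim63* and *Fbxo32* in muscle, and a list of glucocorticoid-responsive genes was followed for that reason. Of 23 tested, 13 were called lower and 0 higher, with a median log2 fold change of -0.81, and the KO libraries lay wholly under control in 14. *Zbtb16*, a transcription factor induced by glucocorticoids, fell from 140 ± 3.70 to 35.5 ± 12.7 CPM, *Lpin1*, the phosphatidate phosphatase lipin 1, from 718 ± 169 to 265 ± 55.6 CPM, and *Mt1*, a metallothionein, from 16.6 ± 5.55 to 4.68 ± 0.967 CPM (SD, n = 4 each). Their edgeR adjusted p-values were 6.01e-04, 9.61e-04 and 9.94e-04. *Nr3c1*, the receptor itself, had a log2 fold change of -0.24 (edgeR adjusted p = 0.438), looked up after its value was seen. Of the 23, 5 also stand among the FOXO targets and all 5 were called, and of the other 18, 8 were called lower. The count of 13 became 8 without control replicate 4, 7 without KO replicate 2 and 7 with no filter on low counts.

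Clock genes moved in both directions, with 4 of 18 called lower and 5 higher, against 3.48% and 2.68% of all rows. *Per3* rose from 5.83 ± 1.31 to 20.8 ± 4.68 CPM and *Hlf* from 12.0 ± 3.01 to 33.0 ± 4.45 CPM, while *Nfil3* fell from 63.1 ± 15.3 to 19.1 ± 4.53 CPM (SD, n = 4 each). The log2 fold changes of *Per3*, *Hlf* and *Nfil3* were 1.84, 1.46 and -1.72 (edgeR adjusted p = 2.85e-04, 9.61e-04 and 5.96e-04). The part of clock phase and of glucocorticoid signaling in the differences of *Trim63* and *Fbxo32* was not tested. The number of clock genes called higher became 3 without control replicate 1 or 2, without KO replicate 1, 2 or 3, and with no filter on low counts.

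Denervation also raises both ligases, and of 16 denervation markers 1 was called lower and 1 higher, against 3.48% and 2.68% of all rows. The median log2 fold change was 0.01, with 8 negative and 8 positive values, from -1.33 (*Gadd45a*, not called) to 1.28 (*Myh3*). *Gadd45a* was picked after its values were seen. Summed CPM of the list ran from 237 to 342 in control and from 177 to 207 in KO mice. *Hdac4*, a repressor induced by denervation, fell from 81.2 ± 9.94 to 40.3 ± 8.29 CPM (SD, n = 4 each), and the embryonic myosin *Myh3* rose by 1.28 on the log2 scale (edgeR adjusted p = 0.00203 and 0.00807). The number called lower became 2 without control replicate 2 or KO replicate 4, 3 without control replicate 3, and 4 with DESeq2. In the list labeled NF-kB pathway downstream of TRAF6, 3 of 24 were called lower and 0 higher, against 3.48% and 2.68% of all rows. The median was -0.12, and the list also holds receptors and other cytokine signals. The called genes were *Tnfrsf12a*, the TWEAK receptor (-2.35), and *Il6ra* (-1.62) and *Socs3* (-1.02), genes of IL-6 signaling. Their edgeR adjusted p-values were 1.28e-04, 0.00953 and 0.0251. *Nfkb1*, *Rela* and *Ikbkb*, looked up after their values were seen, were not called. The number called higher became 1 without KO replicate 4 and with DESeq2 or pydeseq2, and 2 with a minimum of 10 counts in all libraries.

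**Figure D4:**
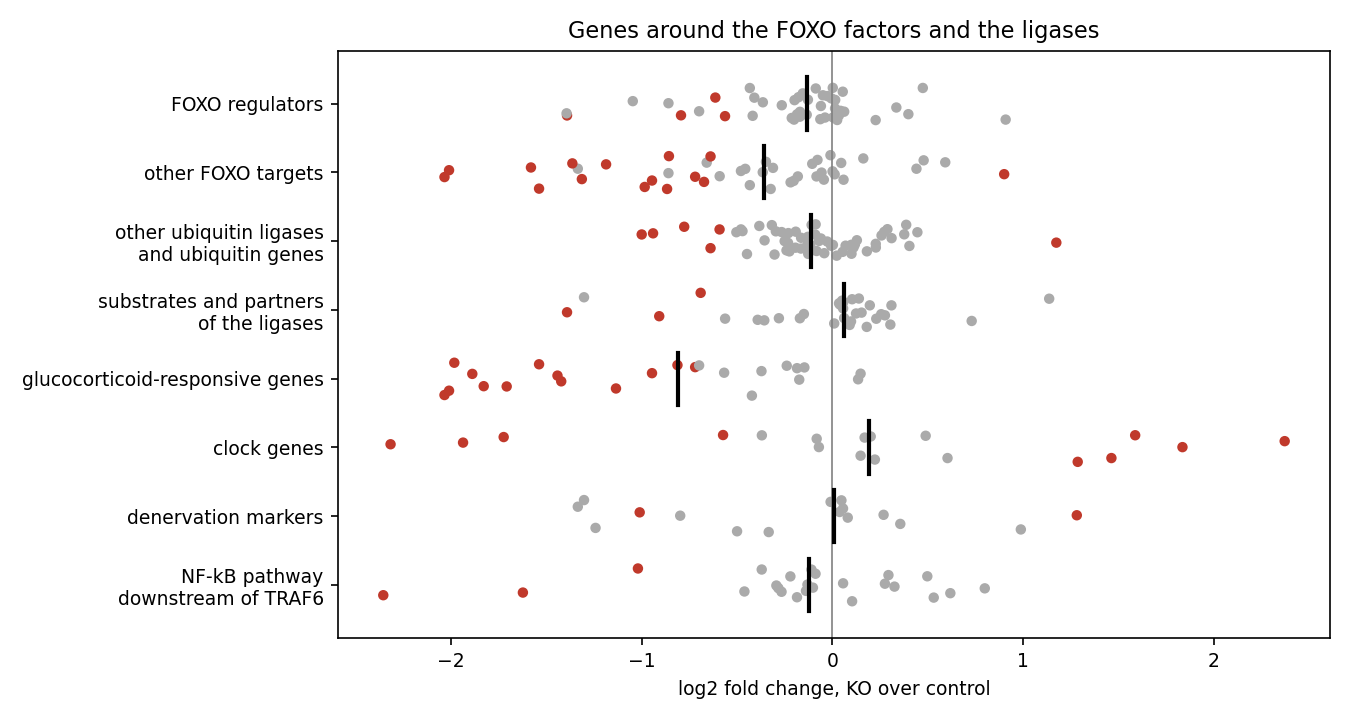
Log2 fold change (KO over control) of each tested gene of the 8 lists around the FOXO factors and the ligases, with 1 point per gene, red where called, and a black bar at the list median. The glucocorticoid-responsive genes have the lowest median, -0.81, and the clock genes spread to both sides.

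Over the 8 mice, the rows whose log2 CPM followed *Trim63* most closely were *Fntb*, *Ipo13* and *Zfand5* (Pearson r of 0.993, 0.991 and 0.991 among 6945 rows of at least 10 CPM). Those for *Fbxo32* were *Atg13*, *Ddx27* and *Npc1* (0.994, 0.990 and 0.989). The mice fall into 2 genotypes, so that these values describe likeness and were not tested. Within genotypes, as deviations from the group means, they ran from 0.933 to 0.992. The rows were picked by their correlation over these same mice, so that high values within genotypes follow in part from the choice.

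Markers of other cells were read beside these differences. The 3 blood genes tested summed to between 47.6 and 52.7 CPM in control and between 72.3 and 159 CPM in KO mice, and *Hba-a1* and *Hbb-bs* were called higher. The 12 immune cell markers all had negative log2 fold changes with none called, and summed to between 63.9 and 176 CPM in control and between 31.2 and 106 CPM in KO mice. Of 9 endothelial markers *Vwf* alone was called, higher, and 0 of the adipocyte, fibroblast and tendon, and satellite cell markers. The 8 slow fiber markers and the 6 nerve and Schwann cell markers all had positive log2 fold changes (medians 0.64 and 0.57) with none called. The slow fiber markers summed to between 332 and 725 CPM in control and between 428 and 1279 CPM in KO mice, and the nerve and Schwann cell markers to between 51.6 and 77.2 CPM and between 61.3 and 155 CPM. Their part in the differences above was not tested.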

How the data were processed

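Gastrocnemius RNA from 8 mice was processed by the authors as poly(A)-selected, unstranded, paired-end libraries, using the nf-core workflow for RNA-seq. The submitters' processing notes name STAR and the build GRCm39, and the annotation and counting settings are not given in the sources used here. The authors deposited raw counts per gene, 1 column per mouse, and all 8 columns were matched to a sample by name. Groups came from the sample titles, and n is the number of mice.

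The counts were fitted with edgeR 4.0.16 under R 4.3.3 (TMM, filterByExpr, estimateDisp, robust glmQLFit and glmQLFTest) on genotype alone. The Benjamini-Hochberg adjustment ran over 12725 rows. CPM are scaled by TMM. Standard errors are the log2 fold change over the square root of F. The fit was tested on simulated data with log2 fold changes of 1 in size. There edgeR recovered 68.2% of the changed genes and 8.16% of its calls were false. DESeq2 recovered 73.5%, and 15% of its calls were false. Alternatives were DESeq2's size factors, library size only, no filter, a minimum of 10 counts in all libraries, glmQLFit without its robust option, an adjusted p under 0.01 or no minimum fold, a replicate block, each library left out, DESeq2 1.42.0, pydeseq2 0.5.4 and limma 3.58.1 voom.

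The 10 genes and all lists were chosen with earlier results of these data known. Named genes are the 10, the called genes of each list that ranked in its lowest 3 p-values, the 3 rows most like *Trim63* and *Fbxo32* over the mice, *Nox4*, and those said to be picked later. Not every called gene of the lists is named. Lengths are from GENCODE M21 (GRCm38) and matched 95.7% of rows tested. Promoter windows are RefSeq's on GRCm38.p6, and no coordinates were mixed with the counts. No 2 libraries differed by less than sampling noise (replicate pairs had a chi-square over its degrees of freedom between 13.6 and 57.4).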

Additional observations from a re-analysis of the deposited data

Results flagged for a closer look

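Each group of 4 mice was examined for a library far from the other 3, by its gap to the nearest library over the range of the group, against Dixon's critical value for 4 samples. Of 38 groups (the 10 genes, the means of the 8 lists and the library totals, in each genotype), 4 held such a library, and about 1 in 20 (1.9) would by chance. Control replicate 4 was the one in 3 of them, as the highest control for *Fbxo32* (ratio 0.871), *Foxo3* (0.881) and the mean of the other FOXO targets (0.909). For *Foxo4*, KO replicate 3 was the lowest of its group (0.848), with 178 CPM where the others had 187 to 189. *Trim63* and *Foxo1* were also highest in control replicate 4 without passing this value.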

How the results depend on the processing

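Over the 10 genes and 17 alternative fits, 164 of 170 fold changes kept both their direction and their call, 0 reversed, and 6 not called in the analysis as reported passed the threshold. *Trim63* and *Fbxo32* were called lower in all 17. *Foxo3* was called by DESeq2 (log2 fold change -0.581), pydeseq2 (-0.581) and with no filter on low counts (-0.583), and with each library left out it ran from -0.733 to -0.440, called without KO replicate 4. *Fbxo21* ran from -0.547 to -0.362, called without KO replicate 3. The total of 784 called genes ran from 499 (without control replicate 4) to 712 with 1 library left out and was 252 at an adjusted p under 0.01, where 28 in place of 48 list genes were called. The counts of single lists rest on few genes, as given above. The median log2 fold change of all rows was between 0.01 and 0.03 in every fit.

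Control and KO mice share replicate numbers, and the deviations of same-numbered mice correlated at 0.214, 0.142, 0.0345 and 0.0406, so that the numbers are not taken to pair them. With the replicate block, *Foxo3* was called (-0.597, edgeR adjusted p = 0.0064), no other call among the 10 changed, and 933 genes were called in all. Not every mouse correlated best with its own number.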
